A study of Mus musculus with 63 samples.

Results

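The transcriptional coactivators *Yap1* and *Wwtr1* (which encodes TAZ), the 4 TEAD DNA-binding factors *Tead1*, *Tead2*, *Tead3* and *Tead4*, and 3 of their target genes, *Ccn1*, *Ccn2* and *Amotl2*, were examined in bulk RNA sequencing of mouse intestinal tumours. They were chosen by gene symbol and are 9 of the 24766 genes in the table. All 63 libraries came from 2 C57BL/6 mice, 1 female and 1 male, so that mouse and sex cannot be told apart. Both carried *Villin-creERT2*, *Apc* fl/+ and the *R26R-Confetti* reporter, a genotype labelled Apchet, received 4 mg of tamoxifen by intraperitoneal injection when older than 8 weeks, and were given 200 mg per kg of the mutagen ENU 10 days afterwards. *Villin* drives the Cre in intestinal epithelium, and every group shares the treatment and the loss of 1 *Apc* allele there. In 20 heterotypic tumours, whose parts differed in reporter colour, the larger (major) and smaller (minor) clone were sequenced as separate libraries, 10 tumours from each mouse. A further 23 tumours, 10 of the female and 13 of the male mouse, were sequenced undivided, and each library carried a label for its intestinal segment (SI10, SI20 or SI30). The libraries are single dissections of tumours, and p-values measure the spread between tumours of these 2 animals.

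Hippo signalling is a kinase cascade in which MST kinases activate LATS kinases, and LATS phosphorylates YAP and TAZ and holds them outside the nucleus. Unphosphorylated YAP and TAZ enter the nucleus, bind TEAD factors and raise transcription of genes such as *Ccn1* and *Ccn2*, which encode secreted matrix-associated proteins, and *Amotl2*, whose product binds YAP in turn. In the intestine YAP is best known for its part in the regeneration of the epithelium after injury. Phosphorylation and location of the proteins were not measured here, and a transcript level reports neither.

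The targets *Ccn1* and *Amotl2* are shown by the 250 bases upstream of the start of their canonical transcript (GRCm39), read 5′ to 3′ in the direction of the gene, because TEAD factors bind the core motif GGAATG, or CATTCC on the other strand, and these genes are widely used as readouts of YAP and TAZ. Capitals mark each match.
Ccn1 (chr3:145355739-145355988, minus strand): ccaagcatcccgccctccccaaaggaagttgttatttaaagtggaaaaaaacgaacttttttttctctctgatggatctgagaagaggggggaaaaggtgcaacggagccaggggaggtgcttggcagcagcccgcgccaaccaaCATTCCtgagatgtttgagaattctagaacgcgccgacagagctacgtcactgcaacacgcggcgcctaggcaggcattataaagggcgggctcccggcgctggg
Amotl2 (chr9:102594617-102594866, plus strand): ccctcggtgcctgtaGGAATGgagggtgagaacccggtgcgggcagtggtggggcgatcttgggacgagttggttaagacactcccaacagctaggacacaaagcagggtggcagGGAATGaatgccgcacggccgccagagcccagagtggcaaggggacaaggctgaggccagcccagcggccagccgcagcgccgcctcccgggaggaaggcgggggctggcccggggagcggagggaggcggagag
The *Amotl2* window held 2 copies, which began 235 and 135 bases before the start and did not overlap, and that of *Ccn1* held 1, at 105 bases. Of 24574 such windows, 12% held at least 1 copy and 0.940% at least 2. Single copies also lay upstream of *Yap1*, *Wwtr1*, *Tead1* and *Tead3*, and no match was found in the windows of *Tead2* and *Tead4*. None of the windows described here matched the AP-1 motif TGANTCA, searched on both strands and present in 5.71% of all windows, or the CArG box of serum response factor, present in 1.27%. A match to so short a motif describes the sequence and does not show binding.

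Values are normalised counts as deposited. Their sum over all genes lay between 26140226 and 45909885 in each library. The ribosomal RNA gene *Rn18s* took a median of 1.24% of the sum in the major clones, against 6.19% for the minor ones and 3.11% for undivided tumours. One undivided library stood apart for these genes, since male tumour 5 was the lowest of the 23 undivided tumours for 6 of the 9. Male tumours 15, 17 and 18, which bear numbers above 10 unlike the other undivided tumours, stood apart in other measures, and the design text lists fewer monoclonal tumours than there are undivided libraries. Their mean log2 level of 10 epithelial markers was 14.19 to 14.44, below the 14.53 to 15.64 of the other 20, that of 20 immediate early genes was 7.91 to 8.57 against 8.29 to 10.25, and *Rn18s* took 11% to 19.3% against 0.561% to 12%. Calls of named genes, and of relations by r, that change without these 3 are given both ways. The epithelial marker *Epcam* was between 31000 and 74420 in undivided tumours, and markers of other cells were present too: the fibroblast marker *Col1a1* ranged from 21.1 to 2751 there and the endothelial marker *Pecam1* from 22.8 to 617. In bulk samples fewer cells of a type and less RNA per cell cannot be told apart.

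Per kilobase of canonical transcript, *Yap1* was the most abundant of the 9 genes, with a median of 777 normalised counts per kb over 63 libraries, and exceeded the next gene, *Tead2* (512 per kb), in 60 of them. *Wwtr1* reached 162 per kb, and the ratio of *Yap1* to *Wwtr1* had a median of 4.70, from 2.05 to 10.8. *Yap1* was thus the major coactivator transcript in every library. Among TEAD factors, *Tead2* made up a median of 57.6% of the family's summed level per kb, from 23.3% to 74.4%. *Tead1* followed with a median of 21.0%, *Tead3* with 20.5% and *Tead4* with 1.45%. *Tead1* (190 per kb) and *Tead3* (180 per kb) could not be ordered, since *Tead1* was above *Tead3* in 28 of 63 libraries. Of the targets, *Ccn1* stood at 229 per kb, *Amotl2* at 60.1 and *Ccn2* at 43.3. *Ccn1* was above *Tead1* in 45 of 63 libraries, *Tead3* above *Wwtr1* in 43 and *Amotl2* above *Ccn2* in 42, so these neighbours overlapped broadly. The other neighbours in the order (*Tead2* and *Ccn1*, *Wwtr1* and *Amotl2*, *Ccn2* and *Tead4*) kept it in at least 60 libraries.

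**Figure D1:**
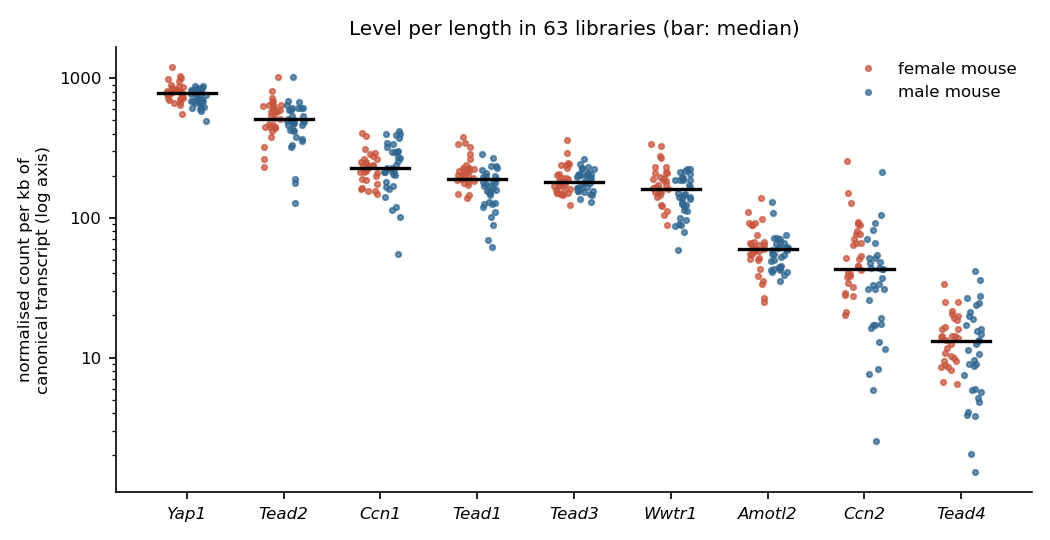
Normalised count per kb of canonical transcript (log axis) of the 9 genes, ordered by median; each point is 1 of 63 libraries, coloured by mouse, and the bar is the median. *Yap1* lies highest with a narrow spread, and *Ccn2* and *Tead4* are lowest, with their lowest values in undivided tumours of the male mouse.

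The genes differed in how far they varied between undivided tumours of one mouse. *Yap1* had a standard deviation of 0.24 on the log2 scale, smaller than that of most genes: 13.1% of 16511 genes varied less. *Tead3* was similar, with 0.26 (15.6% of genes varied less). At the other end stood *Ccn2*, with 1.23 (86.8% varied less), and *Tead4*, with 1.03 (81.1%). *Tead1* (0.41), *Wwtr1* (0.52), *Amotl2* (0.54), *Ccn1* (0.60) and *Tead2* (0.62) lay near the median of all genes, 0.48. Spread depends on level, and among genes within 0.5 log2 units of the same level the order differed: *Tead2* varied more than 88.4% of them, *Ccn2* 86.7%, *Wwtr1* 80.4%, *Ccn1* 78.4%, *Tead1* 73.2%, *Tead4* 72.4%, *Amotl2* 62.7%, *Yap1* 29.2% and *Tead3* 18.5%. In normalised counts, undivided tumours ranged from 2069 to 5011 for *Yap1*, with a median of 3193. *Ccn2* ranged from 6.89 to 696, with a median of 108, a 101-fold span between its lowest tumour (male tumour 17) and its highest (female tumour 3). *Tead4* ranged from 8.97 to 213, with a median of 74.2.

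**Figure D2:**
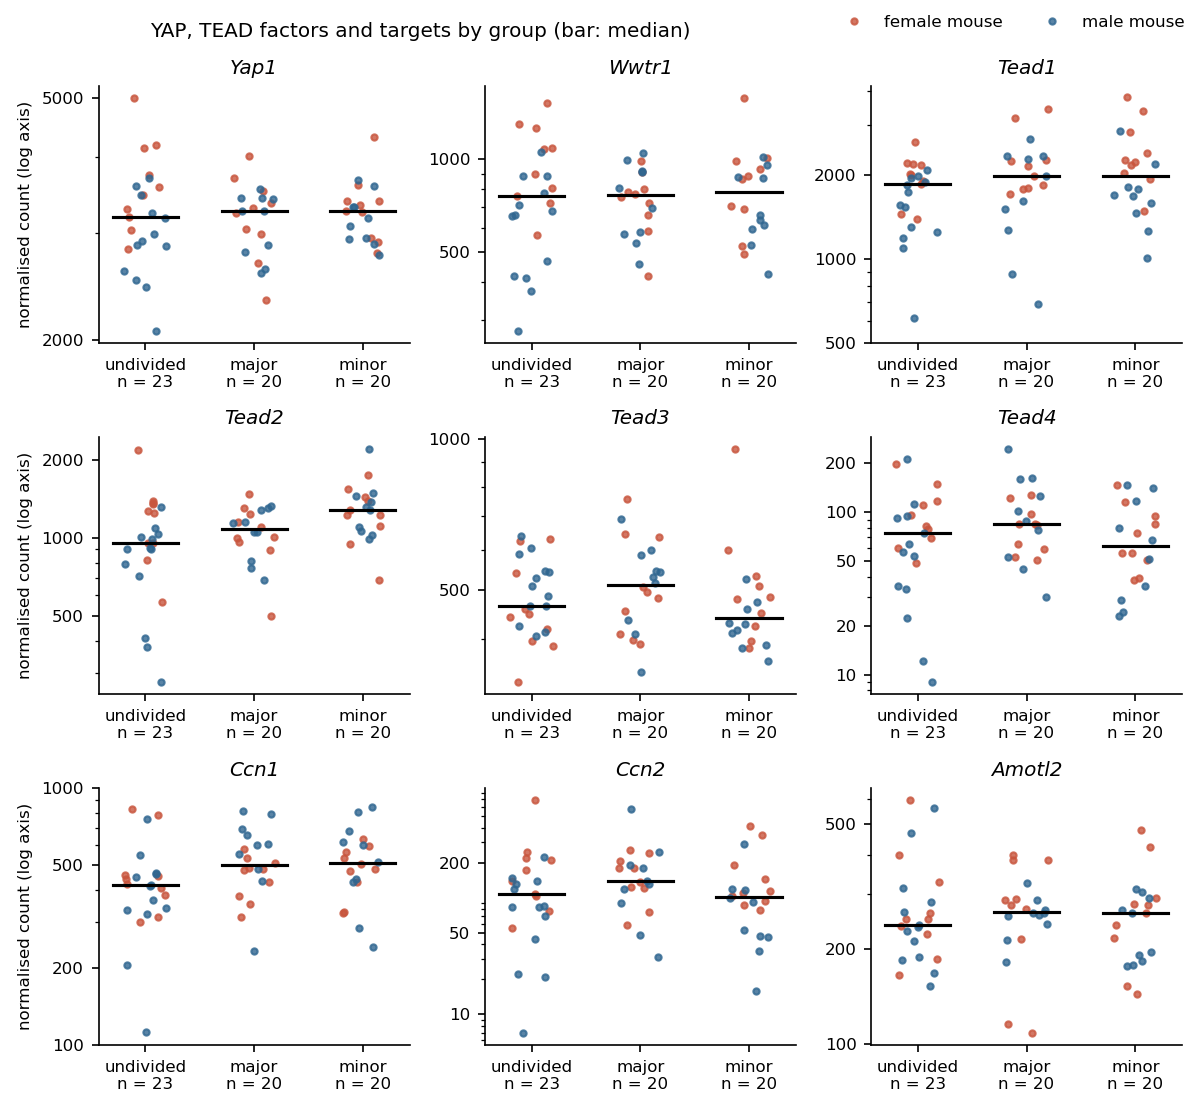
Normalised counts (log axis) of each gene in undivided tumours, major clones and minor clones; points are libraries coloured by mouse and bars are group medians. The 3 groups overlap for every gene, and the undivided tumours reach the lowest values of *Ccn2* and *Tead4*.

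Whether the major and minor clone of a tumour differ was asked within tumours. In a fit that blocked on tumour, 188 of 16428 genes passed (1.14%; limma, Benjamini-Hochberg adjusted p under 0.05). None of the 9 genes was among them, although all 9 passed the filter on low values. An unadjusted p under 0.05 was found for 3 of the 9, beside 3680 of the 16428 genes. The median log2 difference of the 9 was 0.021, beside 0.007 for all genes.

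The coactivators were nearly level between clones. *Yap1* ranged from 2326 to 4017 in major clones, with a median of 3264, and from 2758 to 4318 in minor clones, with a median of 3258. It was higher in the major clone of 10 of 20 tumours, with a mean log2 difference of -0.037 (95% interval -0.14 to 0.064). *Wwtr1* had medians of 765 and 784, was higher in the major clone of 9 tumours and differed by -0.061 (-0.31 to 0.19).

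Of the TEAD factors, *Tead2* came closest to passing. Its values ran from 496 to 1473 in major clones (median 1077) and from 688 to 2205 in minor clones (median 1278), and the groups overlapped. It was lower in the major clone of 14 of 20 tumours, 7 in each mouse, with a log2 difference of -0.29 ± 0.11 (SE; limma adjusted p = 0.115). *Tead4* went the other way, with 30.2 to 245 in major clones (median 84.2) and 23.04 to 148 in minor clones (median 61.6), which also overlapped. It was higher in the major clone of 14 tumours and differed by 0.42 ± 0.16 (adjusted p = 0.126, limma). *Tead1* differed by -0.082 ± 0.15 and *Tead3* by 0.14 ± 0.079, neither past the threshold. With 1 tumour left out, *Tead2* passed in 1 of 20 repeats and differed by -0.34 to -0.23 (adjusted p = 0.0448 to 0.190, limma). The repeat that passed was without female tumour 19, whose *Tead2* gap of 0.74 was the highest, and 859 genes then passed in all. The lowest gap, -1.36, was in female tumour 22, whose clones have different segment labels. Without that tumour 42 genes passed in all and *Tead2* did not.

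Among the targets, *Ccn2* had 31.4 to 580 normalised counts in major clones (median 140) and 15.9 to 413 in minor clones (median 102). It was higher in the major clone of 13 of 20 tumours, with a mean log2 difference of 0.47 ± 0.21 (adjusted p = 0.190, limma). The groups overlapped. By mouse, *Ccn2* was higher in the major clone in 9 of 10 male tumours, with a mean of 0.92, and in 4 of 10 female tumours, with a mean of 0.022. The test of this difference between mice gave -0.89 ± 0.39, unadjusted p = 0.0304 and an adjusted p = 0.633 in limma. The largest gap was in male tumour 19, with 131 in the major and 15.9 in the minor clone. *Ccn1* (0.021, interval -0.19 to 0.23) and *Amotl2* (0.042, interval -0.17 to 0.26) were close to level, with medians of 501 and 512 for *Ccn1* and of 264 and 261 for *Amotl2*, in major and minor clones in turn.

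**Figure D3:**
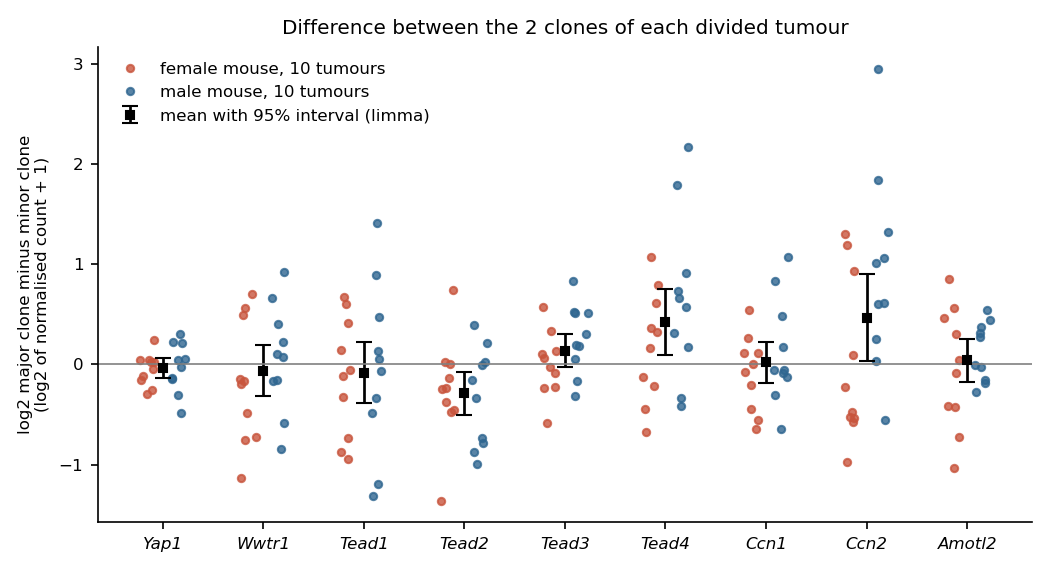
Log2 normalised count of the major clone minus that of the minor clone for each of 20 tumours, coloured by mouse, with the limma mean and its 95% interval. *Yap1* gaps stay close to 0, *Tead2* gaps lie mostly below it, and *Ccn2* gaps of the male mouse lie above it in 9 of 10 tumours.

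All 5 marker lists had a mean difference of the same sign as *Ccn2* between clones. The 10 smooth muscle and pericyte markers were on average higher by 0.54 in major clones, in 4 of 10 tumours of the female and 9 of 10 of the male mouse, and the 10 fibroblast markers by 0.49, in 5 female and 8 male tumours. The immune list was higher by 0.33, in 15 of 20 tumours, the epithelial list by 0.14, in 14 of 20, and the endothelial list by 0.084, in 11 of 20, with -0.22 in the female mouse. None of these genes passed the test (limma), and 10 of 10 smooth muscle, 8 of 10 fibroblast, 9 of 9 immune, 10 of 10 epithelial and 6 of 10 endothelial genes had a positive difference. Across the 20 tumours, the gap of *Ccn2* correlated with the fibroblast gap at r = 0.59 and rho = 0.62 (permutation p = 0.0084 and 0.00603), with the smooth muscle gap at r = 0.56 and rho = 0.53 (permutation p = 0.00989 and 0.0185) and with the endothelial gap at r = 0.59 and rho = 0.61 (permutation p = 0.00823 and 0.00629). After adjustment over the 54 relations computed, none passed (adjusted p = 0.134 for each of the 3). Without the 2 tumours farthest from the median of the list, r was 0.65, 0.37 and 0.62. By mouse, r was 0.79, 0.75 and 0.85 in the female and 0.42, 0.39 and 0.37 in the male mouse. This difference between the mice was not tested. As close to passing were the gaps of *Ccn1* (r = 0.61, rho = 0.60, permutation p = 0.00845 and 0.00888, adjusted p = 0.134 for r) and *Tead4* (r = 0.58, rho = 0.58, permutation p = 0.0142 and 0.012, adjusted p = 0.153 for r) with the gap of the immediate early genes, with r of 0.57 and 0.64 without the 2 farthest tumours. The part of these cells in the *Ccn2* difference was not tested.

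The 2 clones of a tumour were also compared for sharing, with values centred on each mouse and clone class. None of 9 correlations between major and minor clones passed after adjustment. The highest were those of *Tead4* (r = 0.61, rho = 0.54, permutation p = 0.0133 and 0.0299, adjusted p = 0.0792 for r) and *Ccn2* (r = 0.57, rho = 0.53, permutation p = 0.0176 and 0.0236, adjusted p = 0.0792 for r). Both were lower without the 2 tumours farthest from the median, at 0.43 and 0.42.

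Undivided tumours were compared with each kind of clone, with mouse as a covariate. Against major clones 2 of 16510 genes passed (0.0121%), and none of the 9. Against minor clones 610 of 16491 genes passed (3.7%), again none of the 9. Both comparisons use the same 23 undivided tumours. *Tead2* was closest to the threshold: it ran from 276 to 2175 in undivided tumours, with a median of 956, and was lower than in minor clones by 0.46 ± 0.16 (adjusted p = 0.0931, limma). Against major clones the same gene differed by -0.17 ± 0.16. *Tead2* passed against minor clones in the male mouse alone (-0.77, adjusted p = 0.0476, limma), with libraries scaled to the same sum without *Rn18s* (-0.56, adjusted p = 0.0484), and without female tumour 1 or the minor clone of female tumour 19. Without male tumours 15, 17 and 18 it differed by -0.38 (adjusted p = 0.119, limma), and 0 genes passed against major and 828 against minor clones. *Yap1* differed by 0.037 (interval -0.11 to 0.18) from major and by 0.00072 (-0.13 to 0.14) from minor clones, and *Wwtr1* by 0.038 and -0.016. *Ccn1* differed by -0.31 ± 0.16 and -0.28 ± 0.16, with unadjusted p of 0.0632 and 0.0951 in limma, and *Ccn2* by -0.45 ± 0.34 and 0.041 ± 0.33. Beside these values, the fibroblast markers had a median of -0.71 against major and -0.16 against minor clones, and their part was not tested.

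Among other genes tied to the pathway, taken from lists made for background, 26 Hippo components were tested, none of which passed against either kind of clone or between clones. Of 27 other YAP and TEAD targets tested, 2 passed between undivided tumours and minor clones (7.41%, beside 3.7% of all genes), in opposite directions. *Nuak2*, a kinase gene, was higher in undivided tumours than in minor clones (log2 0.63 ± 0.13, adjusted p = 0.00985, limma), and *Fstl1*, a secreted glycoprotein gene of mesenchymal cells, was lower (-0.89 ± 0.24, adjusted p = 0.0309). None passed between clones, where the median of the 27 was 0.13, with 21 positive, beside 0.007 for all genes. Of 16 genes of regenerative or fetal-like epithelium, several of them known to respond to YAP, none passed in these 3 comparisons, and their median in undivided tumours was -0.39 against major and -0.33 against minor clones. In the latter comparison 3 markers of other kinds passed too, the epithelial *Cldn7* (0.28), the endothelial *Cdh5* (-1.12) and the T cell gene *Cd3e* (0.94). With 1 library left out they held in 20, 18 and 22 of 43 repeats, and *Cdh5* and *Cd3e* missed without male tumours 15, 17 and 18 (adjusted p = 0.0737 and 0.0715, limma). Each was the only gene of its list to pass. In those lists 6 of 10 epithelial (median 0.07), 4 of 10 endothelial (-0.16) and 9 of 9 immune markers (0.45) had a positive difference.

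Position along the small intestine was compared between SI10 and SI20. In undivided tumours 28 of 16511 genes passed (0.17%), and in 17 divided tumours, with the mean of the 2 clones, 46 of 16436 (0.28%). None of the 9 genes passed in either. None of them had an unadjusted p under 0.05, beside 1258 genes of all in undivided and 2358 in divided tumours. The widest difference was that of *Tead4*, lower in SI10 by 0.59 ± 0.40 in undivided and by 0.40 ± 0.35 in divided tumours. *Tead4* ranged from 8.97 to 213 in 12 undivided SI10 tumours (median 62.99) and from 33.8 to 198 in 11 SI20 tumours (median 78.7), so the segments overlapped almost entirely. Without male tumours 15, 17 and 18, 0 genes passed between segments in undivided tumours. The clone gap itself did not pass between segments for any gene, with 0 of 16436 called (0%) and 667 at an unadjusted p under 0.05. *Ccn1* was among those 667: its mean gap was 0.27 in 7 SI10 tumours and -0.15 in 10 SI20 tumours, and the fitted difference was 0.42 ± 0.20 (unadjusted p = 0.0453, adjusted p = 0.998, limma). Between the mice the gap passed for 0 of 16428 genes (0%), with 1257 at an unadjusted p under 0.05, and *Ccn2*, given above, was the only one of the 9 among them.

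The 2 mice differed more. In undivided tumours, with segment as a covariate, 3154 of 16511 genes passed (19.1%), and 2 of the 9 did, both higher in the female mouse, a share close to that of all genes. The median log2 difference of the 9 genes was 0.40, beside 0.052 for all genes, and 8 were positive. *Wwtr1* ran from 567 to 1525 in the 10 female tumours (median 986) and from 276 to 1054 in the 13 male ones (median 659). The ranges overlapped, with a log2 difference of 0.69 ± 0.21, or 1.61-fold (adjusted p = 0.0261, limma). *Yap1* ran from 2825 to 5011 in the female (median 3524) and from 2069 to 3691 in the male mouse (median 2910), a difference of 0.30 ± 0.10, or 1.23-fold (adjusted p = 0.0476, limma). Other genes were higher in the female mouse without passing: *Ccn2* by 1.22 ± 0.49 (adjusted p = 0.0837), *Tead4* by 0.88 ± 0.40 (0.127), *Tead2* by 0.58 ± 0.24 (0.0945) and *Tead1* by 0.40 ± 0.17 (0.0949, all limma). *Tead3*, at -0.14 ± 0.12, was the exception in direction. The *Yap1* call was close to the threshold and was lost without the filter on low values, with quantile normalization or without the trend (adjusted p = 0.0678, 0.0546 and 0.0613 in limma), and held in 6 of 23 repeats that left out 1 tumour. *Wwtr1* held in 20 of 23, and missed without female tumour 3, 4 or 8 (adjusted p = 0.0572, 0.0506 and 0.0506, limma). Without male tumours 15, 17 and 18 *Wwtr1* missed (0.64, adjusted p = 0.0579, limma), *Yap1* held (0.33, adjusted p = 0.0445) and *Tead1* passed (0.52, adjusted p = 0.0374).

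The same question in the 17 divided tumours, added after the data were seen, gave 2145 of 16436 genes (13.1%) and 1 of the 9. *Tead1* was higher in the female mouse by 0.45 ± 0.14, or 1.37-fold (adjusted p = 0.0430, limma). Over all 20 divided tumours its values ran from 1707 to 3442 in female major clones (median 2058) against 691 to 2684 in male ones (median 1800), and from 1482 to 3792 in female minor clones (median 2238) against 1008 to 2877 in male ones (median 1684). The call was lost in either clone class alone and held in 5 of 17 repeats that left out 1 tumour. *Yap1* (0.038 ± 0.060) and *Wwtr1* (0.24 ± 0.14) did not pass there, so the coactivator difference of the undivided tumours was not called in the divided ones, and whether the 2 sets of tumours differ in it was not tested.

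**Figure D4:**
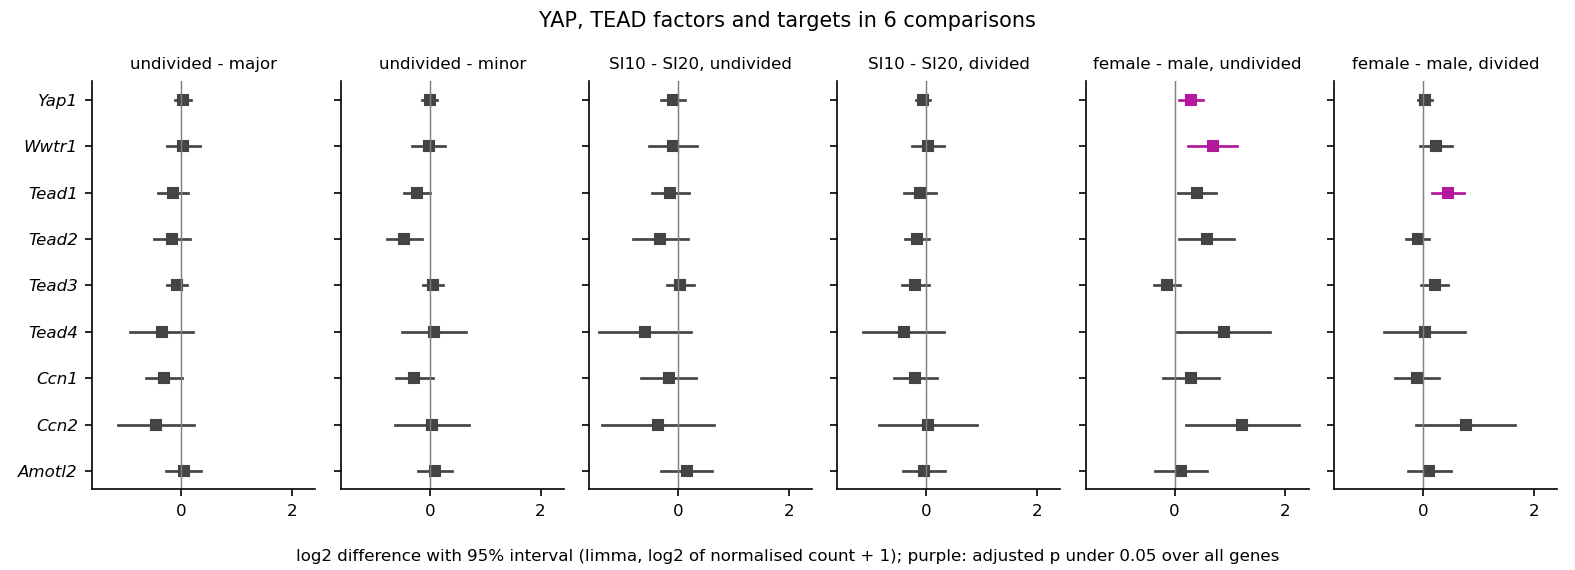
Log2 difference of each gene with its 95% interval (limma) in 6 comparisons, on 1 shared axis; purple marks an adjusted p under 0.05 over all genes. *Yap1* and *Wwtr1* pass between mice in undivided tumours and *Tead1* in divided tumours, and the intervals of *Tead4* and *Ccn2* are the widest throughout.

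For other genes of the pathway, the share that passed between the mice is given beside that of all genes. In undivided tumours, where 19.1% of all genes passed, 4 of 26 Hippo components did (15.4%), all higher in the female mouse: the kinase genes *Taok1* (0.29) and *Lats1* (0.24), and *Limd1* (0.20) and *Wtip* (0.62), whose LIM proteins bind LATS. Of 27 other targets 4 passed (14.8%): *Igfbp3* (1.51), *Myof* (1.28) and *Anxa3* (1.22) were higher and *Nuak2* lower (-0.81). Of the regenerative epithelium genes, *Ly6a* (1.66) and *Ccnd2* (0.65) were among those that were higher. Of 20 immediate early genes, *Klf2* (0.94) and *Egr1* (0.72) were higher (10%). Of the genes named, *Limd1* held in 10 of 23 repeats with 1 tumour left out and the rest in at least 20, and *Myof*, *Anxa3* and *Klf2* missed without male tumours 15, 17 and 18 (adjusted p = 0.0804, 0.0679 and 0.0512, limma). In the divided tumours, where 13.1% of all genes passed, 5 of 26 Hippo components did (19.2%), 2 of 27 other targets (7.41%) and 2 of 20 immediate early genes (10%). *Taok1* (0.31), *Taok3* (0.31), *Nf2* (0.20) and *Amotl1* (1.16) were higher in the female mouse and *Ajuba*, which stands in both the Hippo and the target list, was lower (-0.47). There *Nuak2* was lower again (-0.41), *Anxa1* (-0.76), *Cldn4* (-0.46) and *Krt7* (-0.44) of the regenerative list were lower (3 of 16, 18.8%), and *Klf2* was higher (0.56) and *Btg2* lower (-0.41). With 1 tumour left out *Taok3* held in 2 of 17 repeats, *Nf2* in 4, *Nuak2* and *Krt7* in 5, *Klf2* in 6, *Amotl1* in 10 and *Taok1* in 11, and *Ajuba*, *Anxa1*, *Cldn4* and *Btg2* in all 17.

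Markers of other cells differed between the mice too. All 10 endothelial markers had a positive difference in undivided tumours, with a median of 0.98, and *Cldn5* (2.14), *Cdh5* (1.91), *Emcn* (1.495) and *Kdr* (1.27) passed (40%, beside 19.1% of all genes). *Emcn* and *Kdr* held in 9 of 23 repeats with 1 tumour left out, and *Cldn5*, *Emcn* and *Kdr* missed without male tumours 15, 17 and 18 (adjusted p = 0.0574, 0.0602 and 0.0621, limma). Of the fibroblast markers 7 of 10 were positive, with a median of 0.49, while *Fbln1*, the 1 that passed (10%), was lower in the female mouse (-0.55). Of the epithelial markers 4 of 10 were positive, with a median of -0.20, and *Cdx2*, the 1 that passed (10%), was lower (-0.58). Smooth muscle markers had a median of 0.093, with 5 of 10 positive. In the divided tumours, where *Tead1* passed, 10 of 10 smooth muscle (median 0.79), 8 of 10 endothelial (0.76), 8 of 10 fibroblast (0.49) and 6 of 9 immune markers (0.23) were positive. Epithelial markers went the other way, with 1 of 10 positive (median -0.12). Of the genes in these lists, the immune genes *Cd79a* (1.92) and *Cd68* (0.53) passed (22.2% of that list, beside 13.1% of all genes), *Cd68* in 6 of 17 repeats with 1 tumour left out. The part of these cells in the differences between the mice was not tested.

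How the 9 genes moved with each other was examined across the 23 undivided tumours, after each value was centred on its mouse. Of 36 pairs, 8 passed after adjustment over the 36 (two-sided permutation within mice), all positive. The share of pairs of other genes that pass was not computed, so the count of 8 stands without a background. *Wwtr1* was in 3 of the 8 pairs. It correlated with *Ccn2* at r = 0.68 and rho = 0.69 (permutation p = 0.00064 and 0.00063, adjusted p = 0.00576 and 0.0227), with r = 0.60 in the female and 0.71 in the male mouse and 0.68 without the 2 tumours farthest from the median. It correlated with *Ccn1* at r = 0.68 and rho = 0.64 (permutation p = 0.00046 and 0.00176, adjusted p = 0.00576 and 0.0253) and with *Tead4* at r = 0.68 and rho = 0.62 (permutation p = 0.00063 and 0.00347, adjusted p = 0.00576 and 0.0253). *Tead3* correlated with *Amotl2* at r = 0.66 and rho = 0.56 (permutation p = 0.00062 and 0.00697, adjusted p = 0.00576 and 0.0331) and with *Ccn2* at r = 0.54 and rho = 0.55 (permutation p = 0.00584 and 0.00753, adjusted p = 0.0263 and 0.0331). The other 3 were *Tead4* with *Ccn1* (r = 0.62, rho = 0.61, permutation p = 0.00337 and 0.00315, adjusted p = 0.0202 and 0.0253) and with *Ccn2* (r = 0.60, rho = 0.59, permutation p = 0.00502 and 0.00497, adjusted p = 0.0258 and 0.0298), and *Yap1* with *Tead1* (r = 0.59, rho = 0.47, permutation p = 0.00309 and 0.0256, adjusted p = 0.0202 and 0.0709). In the *Tead4* pairs r was 0.76 and 0.75 in the male and 0.14 and 0.10 in the female mouse, a difference that was not tested. By rho alone, *Wwtr1* with *Tead3* (r = 0.48, rho = 0.52, permutation p = 0.0189 and 0.0124, adjusted p = 0.0621 and 0.0446) and *Tead2* with *Ccn1* (r = 0.46, rho = 0.55, permutation p = 0.0358 and 0.00827, adjusted p = 0.0991 and 0.0331) passed as well.

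Male tumour 5 bore on this count. Without it 2 pairs passed, *Wwtr1* with *Ccn2* (r = 0.64, adjusted p = 0.0302, permutation) and *Tead3* with *Amotl2* (r = 0.67, adjusted p = 0.0302, permutation), while *Yap1* with *Tead1* was 0.42 (adjusted p = 0.152, permutation). The relation of *Yap1* did not pass with the targets *Ccn1* (r = 0.022, rho = -0.17, permutation p = 0.921 and 0.435) or *Ccn2* (r = 0.12, rho = 0.068, permutation p = 0.596 and 0.760), nor *Wwtr1* (r = -0.040, rho = -0.10, permutation p = 0.859 and 0.643). By mouse, r of *Yap1* with *Ccn1* was -0.61 in the female and 0.37 in the male mouse, and with *Ccn2* -0.17 and 0.29. These differences between the mice were not tested. With *Amotl2*, *Yap1* correlated at r = 0.49 and rho = 0.60 (permutation p = 0.0207 and 0.00351, adjusted p = 0.0621 and 0.0253). Without male tumour 5 its r with *Ccn1* was -0.41 (adjusted p = 0.161, permutation).

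The same tumours were compared by the mean log2 level of lists of other cells. Of 54 relations 9 passed (14 without male tumours 15, 17 and 18), all 9 positive: 3 of *Ccn2*, 3 of *Wwtr1*, 2 of *Tead3* and 1 of *Ccn1*. The share of other genes that pass with these lists was not computed. *Ccn2* correlated with smooth muscle markers at r = 0.80 and rho = 0.82 (permutation p = 2e-05 and 1e-05, the latter the smallest that the draws can give, adjusted p = 0.00072 for r) and with fibroblast markers at r = 0.78 and rho = 0.74 (permutation p = 3e-05 and 0.00021, adjusted p = 0.00072 for r). *Wwtr1* correlated with endothelial markers at r = 0.77 and rho = 0.78 (permutation p = 4e-05 and 9e-05, adjusted p = 0.00072 for r), with smooth muscle markers at r = 0.76 and rho = 0.75 (permutation p = 6e-05 and 0.00019, adjusted p = 0.00081 for r) and with fibroblast markers at r = 0.72 and rho = 0.76 (permutation p = 0.00027 and 0.00014, adjusted p = 0.00243 for r). Without the 2 tumours farthest from the median of the list these 5 values of r were between 0.65 and 0.78. *Ccn2* with endothelial markers was at r = 0.64 and rho = 0.54 (permutation p = 0.00177 and 0.0140, adjusted p = 0.0119 for r), and r was 0.47 without the 2 farthest tumours. *Tead3* correlated with smooth muscle markers at r = 0.62 and rho = 0.66 (permutation p = 0.00149 and 0.00075, adjusted p = 0.0115 for r) and with fibroblast markers at r = 0.54 and rho = 0.57 (permutation p = 0.00421 and 0.00528, adjusted p = 0.0253 for r).

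*Ccn1*, itself known as an immediate early gene like *Ccn2*, passed with the immediate early list. It correlated with the mean of 20 immediate early genes at r = 0.70 and rho = 0.68 (permutation p = 0.0002 and 0.00059, adjusted p = 0.00216 for r), with r = 0.70 in the female and 0.71 in the male mouse and 0.85 without the 2 farthest tumours. For *Ccn2* with that list r was 0.32 (rho = 0.37, permutation p = 0.181 and 0.104), and 0.56 without male tumours 15, 17 and 18 (adjusted p = 0.0459, permutation). Whether *Ccn1* and *Ccn2* differ in this was not tested. *Wwtr1* was at r = 0.55 with that list (adjusted p = 0.0563, permutation), and at 0.72 without male tumours 15, 17 and 18 (adjusted p = 0.00386). Without those 3, *Tead4* passed with that list (r = 0.62, adjusted p = 0.028, permutation). Endothelial markers then passed with *Tead4* (r = 0.69, adjusted p = 0.027, permutation) and *Tead3* (r = 0.51, adjusted p = 0.0336). *Yap1* had no relation past the threshold with any list, with r = -0.063 (rho = -0.019, permutation p = 0.778 and 0.933) for smooth muscle and -0.039 (rho = -0.043, permutation p = 0.863 and 0.849) for fibroblast markers. By rho alone *Ccn1* also passed with fibroblast markers (r = 0.44, rho = 0.59, permutation p = 0.052 and 0.00406, adjusted p = 0.173 and 0.0244) and endothelial markers (r = 0.54, rho = 0.63, permutation p = 0.0105 and 0.0017, adjusted p = 0.0563 and 0.0115). No gene passed by r with the epithelial or the immune list. A gene and a list share the library and its scaling, and the part of stromal cells in the levels of *Ccn2* and *Wwtr1* was not tested.

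**Figure D5:**
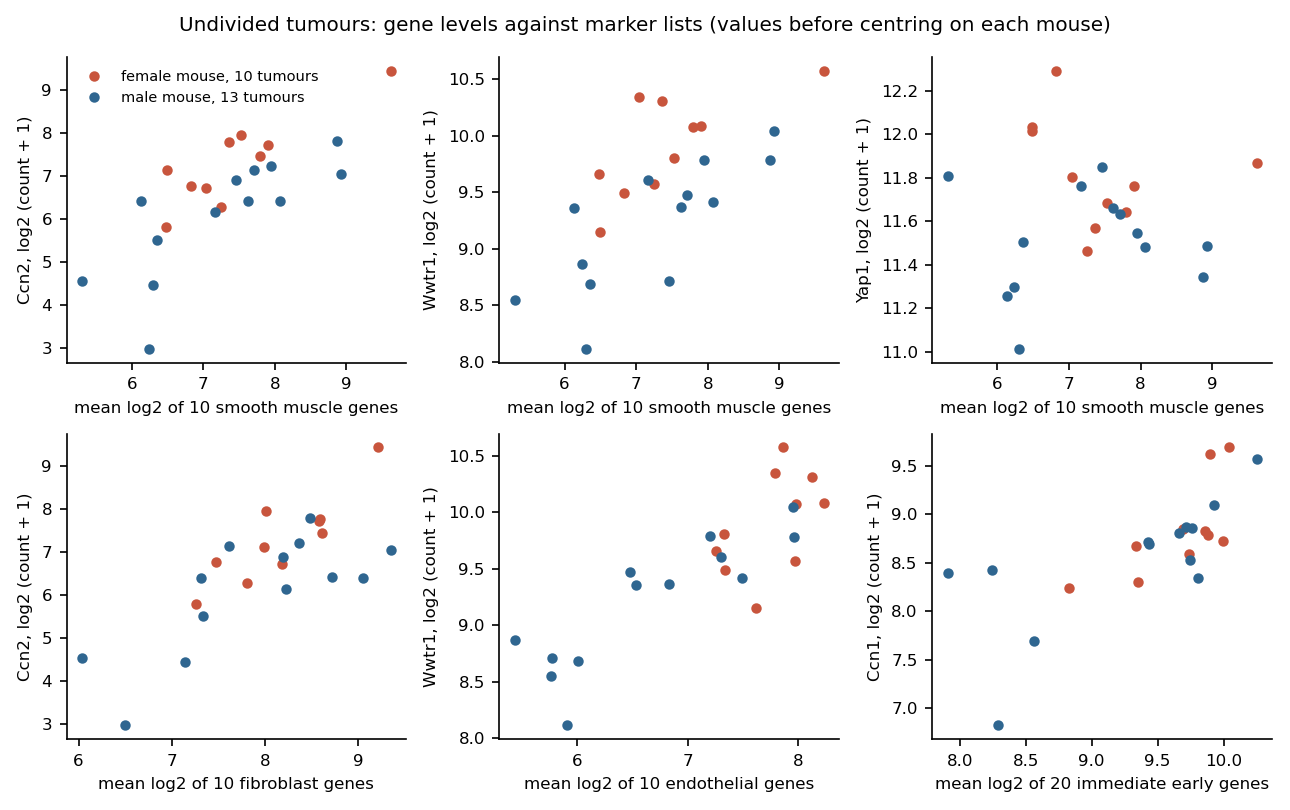
Log2 values of *Ccn2*, *Wwtr1*, *Yap1* and *Ccn1* against the mean log2 value of marker lists in 23 undivided tumours, before centring, coloured by mouse. *Ccn2* climbs with the smooth muscle and fibroblast lists in both mice, and *Wwtr1* with the smooth muscle and endothelial lists. *Ccn1* climbs with the immediate early genes, and *Yap1* shows no such slope with smooth muscle.

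Of all genes with a mean of at least 50 (13086), those most like each of the 9 across undivided tumours are given as a description. *Wwtr1* was most like *Foxf2*, a forkhead factor of gut mesenchyme that also stands in the list of other targets (r = 0.90, with 0.92 in the female and 0.90 in the male mouse), then *Pde4b* (0.87) and *Chst11* (0.87). *Ccn2* was most like the endothelial *Pecam1* (0.85), *Tgfb1i1* (0.85) and *Ehd2* (0.84). *Ccn1* was nearest to *Kctd11* (0.83), *Clic4* (0.80) and *Sntb2* (0.80), and *Amotl2* to *Maml3* (0.85), *Prdm2* (0.81) and *Wiz* (0.80). *Yap1* was nearest to *Ubqln4* (0.87), *Appbp2* (0.86) and *Rbm6* (0.86). Of the TEAD factors, *Tead1* lay nearest to *Nlgn2* (0.85), *Cep131* (0.85) and *Afap1* (0.80), *Tead2* to *Slc7a5* (0.78), *Abcc4* (0.77) and *Cdh5* (0.77), *Tead3* to *Magi1* (0.88), *Spen* (0.85) and *Numa1* (0.84), and *Tead4* to *Rnf39* (0.83), *Arrdc1* (0.78) and *Niban2* (0.77). None of these lists of nearest genes held another of the 9.

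The genes lie on GRCm39 at chr9:7932000-8004661 (*Yap1*, minus strand), chr3:57363067-57483331 (*Wwtr1*, minus), chr7:112278522-112506014 (*Tead1*, plus), chr7:44865172-44883071 (*Tead2*, plus), chr17:28550645-28569791 (*Tead3*, minus), chr6:128201251-128277786 (*Tead4*, minus), chr3:145352720-145355738 (*Ccn1*, minus), chr10:24471333-24474900 (*Ccn2*, plus) and chr9:102593836-102610617 (*Amotl2*, plus). *Tead1* overlaps the predicted gene *Gm55995* on the same strand, so reads of the shared stretch could be counted to either. The others overlap, where at all, genes of the opposite strand, which a stranded library separates where the counting uses strand.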

How the data were processed

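Polyadenylated RNA of 63 mouse tumour libraries was sequenced with a stranded kit. As deposited by the authors, the values are a signal per gene: estimates from Salmon 1.9.0 against Gencode on GRCm39, scaled between libraries (normalised counts). They name DESeq2, and how the scaling was done is not given in the sources used here. No column holds whole numbers or steps of single reads, so that depth is unknown and errors are those between tumours.

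Undivided and divided tumours were told apart by the sample titles. The labels do not give major and minor, which were taken from the source data of the study. The 2 clones of a tumour share its number in the titles, and the tumour was a block. Genes whose mean reached 10 entered, as log2(value + 1), a fit in limma 3.58.1 (R 4.3.3, moderated with a trend), with Benjamini-Hochberg adjustment over all genes at 0.05. Fold changes are on that scale, which understates changes of low genes. Correlations used 100000 permutations within mice (Python 3.11.15), with adjustment over the relations computed. Positions and upstream windows came from Gencode M39 on GRCm39. One upstream window and one gene of a list are not reported here. The scripts were tested on simulated data. Named genes are the 9 genes, list genes past the threshold (for a list with over 6, the 3 with the largest change each way), the first 2 markers of a list, the 3 genes most like each of the 9, and *Rn18s*. Members and lists were chosen with earlier results of these data known. Alternatives covered the pseudocount (0.1 and 5), the filter (none and 50), quantile normalization, equal library sums with and without *Rn18s*, no trend, no block, covariates, each mouse, and each tumour or library left out. The comparison of mice in divided tumours, the relations of clone gaps and the refits without male tumour 5 or without male tumours 15, 17 and 18 were added after the data were seen.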

Additional observations from a re-analysis of the deposited data

Results flagged for a closer look

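In groups of 10 libraries of one mouse and kind (undivided, major or minor), 4 values of the 9 genes lay apart from the rest by Dixon's criterion, of 45 groups looked at, and chance gives about 1 in 20. *Tead2* was lowest in the major clone of female tumour 22, at 496 normalised counts (next 893, median 1054). This is the tumour whose clones have different segment labels. *Tead2* was highest in the minor clone of male tumour 29, at 2205 (next 1483, median 1298). *Tead3* was highest in the minor clone of female tumour 26, at 955 (next 600.0, median 482). *Ccn1* was lowest in the major clone of male tumour 23, at 232 (next 436, median 604).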

How the results depend on the processing

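With 2 mice, sex and animal cannot be told apart, and calls near the threshold moved with single tumours. Between clones no gene of the 9 passed in any alternative, the fit without the tumour as a replicate block included (0), apart from leaving out 1 tumour (0 to 1). Signs turned for *Wwtr1* in the male mouse (0.064), for *Ccn1* and *Amotl2* in the female mouse (-0.087 and -0.046) and with equal sums without *Rn18s* (-0.035 and -0.015), and leaving out 1 tumour gave -0.034 to 0.057 for *Ccn1* and -0.00054 to 0.099 for *Amotl2*. Undivided tumours against minor clones gave 1 gene with equal sums without *Rn18s*, 1 in the male mouse alone, and 0 to 1 with 1 library left out. Between mice, undivided tumours gave 1 gene without the filter, 1 with quantile normalization, 1 without the trend, 5 with equal sums, which moved the median of all genes to 0.25, and 0 to 3 with 1 tumour left out. Divided tumours gave 0 without the filter, 0 without the trend, 0 in major clones, 0 in minor clones, and 0 to 2 with 1 tumour left out. Pairs numbered 17 with equal sums without *Rn18s* and 2 without male tumour 5, where *Yap1* had r of -0.41 with *Ccn1* and -0.025 with *Ccn2*. Without male tumours 15, 17 and 18 these were -0.013 and -0.065, and 11 pairs and 14 relations with lists passed. The pairs gained were *Wwtr1* with *Tead3*, *Tead2* with *Tead4* and *Tead2* with *Ccn1*. Their r was then 0.56, 0.60 and 0.57 (adjusted p = 0.0318, 0.0318 and 0.0442, permutation). With all 23 undivided tumours it was 0.48, 0.45 and 0.46 (adjusted p = 0.0621, 0.115 and 0.0991, permutation). *Yap1* with *Wwtr1* was 0.26 with equal sums without *Rn18s* and 0.28 without centring. The cause was not tested in any of these. Of all genes called, the share higher was 58.5% between clones (major), 38.7% with quantile normalization and 27.7% with equal sums without *Rn18s*, and 46.2% between mice (female, undivided), 77.9% with equal sums and 69.9% without *Rn18s*. Against minor clones it was 61.5% (undivided), 36.7% with equal sums and 29.5% without *Rn18s*. The 188 genes called between clones became 85 without the filter, 89 without the trend, 344 with quantile normalization, 292 with equal sums, 602 without *Rn18s*, 49 by exact signed-rank tests, 1 without the block, 0 and 33 in the female and male mouse alone, and 25 to 859 with 1 tumour left out. Against minor clones 274 to 959 genes were called with 1 library left out. Of 428 refits of 40 called gene differences, those with 1 tumour or library left out apart, 342 kept the call and 86 lost it. Of 208 refits of 18 differences not called, 7 passed and 5 turned sign. These 18 were a selection from the 9 genes. They were the differences between clones, those elsewhere with an unadjusted p under 0.05 (limma), and *Yap1* and *Wwtr1* between mice in divided tumours. The 60 other differences of the 9 genes had 1932 refits, those with 1 tumour or library left out included. Of these refits 131 turned sign, in 31 of the 60 differences, and 1 passed.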
